A study of Mus musculus with 6 samples.

Results

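The genes described are 10 immediate-early and MYC network genes, listed by symbol: Myc, Max and Mxd1, the EGR genes Egr1, Egr2 and Egr3, the IER genes Ier2, Ier3 and Ier5, and Srf. All 10 were found among the 23154 Ensembl mouse genes of the deposited table. The measurements come from RAW264.7, a mouse cell line with macrophage features that was transformed by Abelson leukaemia virus. A stable line carried pINDUCER20b-HA-NUR77, a doxycycline-inducible construct for the nuclear receptor NUR77 with an HA tag, and the control line carried pINDUCER20b-GFP. Cells of both lines received doxycycline at 1 µg/mL for 18 hours, and 3 dishes per line were sequenced as poly(A) RNA. A time of 24 hours after seeding is also given for both lines. Each group is 1 stable line, so an effect of the transgene and a difference between the lines cannot be told apart. No cells without doxycycline were analysed here, and the labels name no growth factor or inflammatory stimulus.

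Immediate-early genes are transcribed within minutes of a growth factor, cytokine or microbial signal, without new protein synthesis, and most of their transcripts are short-lived. Many carry binding sites for serum response factor (SRF), which acts with ETS-family partners downstream of the kinase ERK or with actin-regulated cofactors of the MRTF family. MYC is a basic helix-loop-helix leucine zipper factor that binds DNA as a dimer with MAX and drives ribosome production and growth, whereas MXD1 and its relatives pair with the same MAX and repress. EGR factors bind GC-rich DNA through zinc fingers, and in macrophages they belong to both differentiation and activation programmes. The IER genes encode small regulatory proteins, of which IER3 is known for its link to cell survival and ERK signalling.

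The binding letters of these factors occur in promoters of members themselves, and 4 stretches are shown because they hold the letters read by SRF and MAX, which are members too. The RefSeq promoter table (GRCm38.p6, windows of 300 bases from 250 before to 50 after a start site) held 10 windows for 6 members; Myc, Egr1, Egr3 and Ier2 had no entry. Letters run 5′ to 3′ on the strand of the gene. Capitals mark the CArG box, the SRF-binding motif, in the first 3 stretches and the E-box CACGTG, the motif bound by MYC and MAX, in the last. The lines give the stretch of Srf on the minus strand (chr17:46556203-46556262), of 2 start sites of Egr2 on the plus strand (chr10:67537466-67537525 and chr10:67537769-67537828), and of Max on the minus strand (chr12:76962239-76962268).
Srf: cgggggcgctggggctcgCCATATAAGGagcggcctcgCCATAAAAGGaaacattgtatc
Egr2, upstream site: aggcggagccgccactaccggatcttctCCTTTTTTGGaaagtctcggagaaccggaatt
Egr2, downstream site: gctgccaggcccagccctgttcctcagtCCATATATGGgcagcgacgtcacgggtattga
Max: ggcgcggtgagcccggtCACGTGttagggg

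The Srf window held 2 CArG boxes, whose first bases lay 82 and 62 bases before the start site. CArG boxes were found in 5 of the 10 member windows (1 of Srf and 4 of Egr2, of which 3 overlap and hold the same box), beside 1.63% of the 32851 windows in the table. The E-box CACGTG was found in 2 member windows (Max and 1 of Egr2), beside 7.15% of all windows. Both strands were searched. The letters TGACGTCA (bound by CREB and ATF factors), GCGTGGGCG (bound by EGR factors) and AAAGGTCA (the NBRE, bound by NUR77 as a monomer) were found in 0 of the 10 member windows, beside 1.79%, 0.612% and 1.51% of all windows. The windows overlap for genes with several start sites, and these matches describe the letters only.

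The libraries held 11199468 to 15929487 reads on genes. The unit used is the normalized read, which stands for 1 read in a library of 10000000 reads on genes; Myc, for example, rests on 212 control reads and 1831 NUR77 reads. Genes with a mean of 10 or more were tested with limma on log2(normalized reads + 1), which gave 11201 genes, and all 10 members passed this filter. Log2 changes (log2 fold changes) are NUR77 over GFP on that scale and understate the change of low genes, while folds are ratios of mean normalized reads. The p-values were adjusted over those 11201 genes by the Benjamini-Hochberg method, and genes under 0.05 were called. Nr4a1, which encodes NUR77, measured 170, 148 and 161 normalized reads across the control dishes, against 288, 314 and 297 across the NUR77 dishes (log2 change of 0.90 with an SE of 0.08, adjusted p = 5.5e-08). Reads of the transgene and of the endogenous gene cannot be told apart here. All 10 macrophage markers examined had reads. Their summed level was 77232 to 78725 in the control line, against 29350 to 30925 in the NUR77 line. Of them 6 fell (Mpeg1, Lyz2, Cd68, Cd14, Csf1r and Adgre1) and 2 rose (Itgam, from 4224 to 9598, and Fcgr1). Ptprc and Spi1 were not called (log2 changes of 0.03 and 0.09). The highest markers of the control line fell most in level: Lyz2 (26664 to 2566), Mpeg1 (16580 to 1019) and Cd68 (14010 to 5136). The part of these marker differences in the results on the members was not tested. In bulk RNA, fewer cells of a type and less RNA per cell cannot be told apart. No read was found for Pdgfra (fibroblast), for Cd3e, Cd3g and Ms4a1 (T and B cells) or for Cdh1, Krt5, Krt8 and Krt14 (epithelium). The other 6 of the 7 fibroblast markers had reads. Their summed level was 17.6 to 22.3 in the control line, against 29.4 to 114 in the NUR77 line. The summed level of the 8 T and B cell markers was 2.79 to 4.58 in the control line, against 13.4 to 30 in the NUR77 line, of which Cd79b alone made up 12.5, 28.6 and 24.7, and that of the 6 epithelial markers was at most 0.893 in any library.

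Of the 10 members, 5 rose in the NUR77 line (Myc, Mxd1, Ier2, Ier3 and Ier5), 2 fell (Egr1 and Egr3), and 3 did not pass the threshold (Max, Egr2 and Srf). Over all tested genes, 66.7% were called, 38.4% higher and 28.3% lower, so that a share of 7 called members in 10 is near the background. The balance of directions over all genes turned with the scaling, from 4305 higher and 3170 lower to 3612 higher and 3835 lower under TMM scaling, where 5 members were higher and 3 lower. The sizes of the changes varied widely among the members. A change of 2-fold or more was called in 4 of them (Myc, Mxd1, Egr1 and Ier3), where 13.9% of all tested genes changed by that much. Mxd1 was close to that limit. Its log2 change was 0.97, 0.99 and 0.98, just under 2-fold, under TMM, median-of-ratios and upper-quartile scaling. The median log2 fold change was 0.33 over the members and 0.06 over all tested genes. The values of the lines did not overlap in 7 members, and in 70.6% of all tested genes. The members and the lists below were chosen with earlier results of these data known, so contrasts with all tested genes are not tests.

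Per kilobase of annotated exon, the order of the levels differed between the lines. In the GFP line Egr1 was highest at 465 normalized reads per kilobase, ahead of Max at 383, then Ier3, Srf, Ier2 and Ier5 between 240 and 191, then Mxd1 at 22.5, Egr2 at 17.9, Myc at 17.1 and Egr3 at 3.33. In that order the libraries of Ier3 and Srf, Srf and Ier2, Ier2 and Ier5, and Egr2 and Myc overlapped. In the NUR77 line Ier3 was highest at 908, ahead of Max at 384, Ier2 and Ier5 at 281 each, Srf at 240, Myc at 177, Egr1 at 172, Mxd1 at 46.7, Egr2 at 14.1 and Egr3 at 1.84. Ier2 and Ier5 overlapped there, as did Myc and Egr1, which were 17.1 and 465 in the control line.

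**Figure D1:**
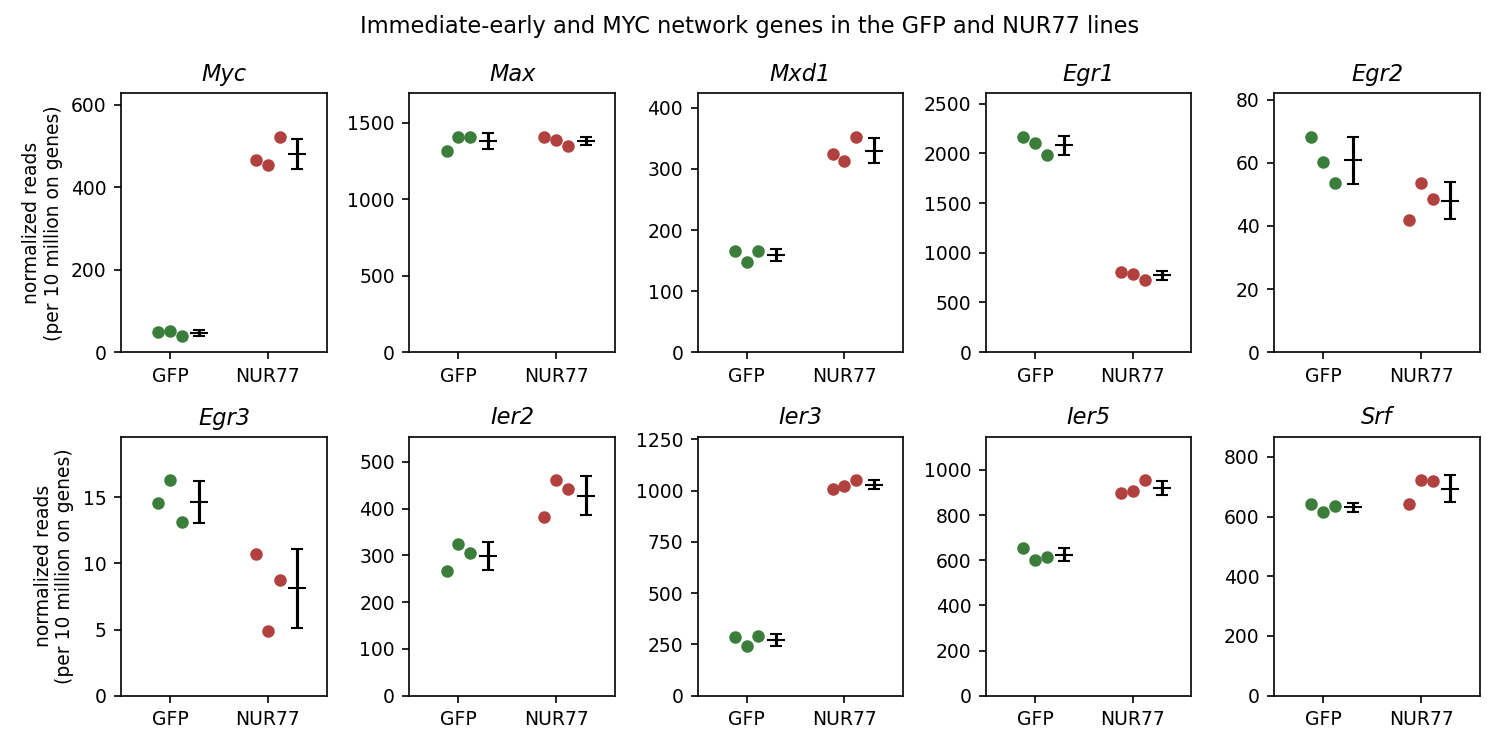
Normalized reads per 10000000 reads on genes (vertical axes, linear from 0) of the 10 genes in the 3 GFP (green) and 3 NUR77 (red) libraries; points are libraries and black marks are the mean ± SD. Myc and Ier3 stand clearly higher and Egr1 clearly lower in the NUR77 line, while the points of Max, Egr2 and Srf overlap.

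Myc (ENSMUSG00000022346, mm10 chromosome 15, 61985391 to 61990374, plus strand) measured 49.5, 51.5 and 38.6 normalized reads across the control dishes, against 467, 453 and 523 across the NUR77 dishes. Every NUR77 library was far above every GFP library, and the spread within each line was small beside the gap. Its mean went from 46.5 ± 6.95 to 481 ± 37.4 (SD, n = 3 dishes for each line), a 10.3-fold rise (log2 change of 3.35 with an SE of 0.11, adjusted p = 1.0e-13). By size of log2 fold change Myc ranked 252 of the 11201 tested genes. The 24 nearest tested neighbours of Myc on the chromosome had a median log2 fold change of -0.11, with 7 higher and 8 lower. The tested genes with the profile nearest to that of Myc, by Euclidean distance between centred log2 values over the 6 libraries, were Rbpms (distance 0.32), Esx1 (0.33) and Zcwpw1 (0.35). Esx1 rests on only 7 reads in the control line, and its log2 change ran from 2.11 to 3.67 over the alternative settings.

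Max (ENSMUSG00000059436, chromosome 12, 76937269 to 76962201, minus strand), the obligate partner of MYC and MXD1, measured 1318, 1410 and 1408 normalized reads across the control dishes, against 1405, 1387 and 1350 across the NUR77 dishes. The groups overlapped. Its log2 fold change was 0.00 with a 95% interval of -0.11 to 0.11 (adjusted p = 0.97). Its sign turned negative under other scalings, at -0.07 to -0.05.

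Mxd1 (ENSMUSG00000001156, chromosome 6, 86647042 to 86669161, minus strand), which encodes a repressor that competes with MYC for MAX, measured 165, 148 and 165 normalized reads across the control dishes, against 324, 313 and 353 across the NUR77 dishes. All 3 NUR77 values were above the GFP values, and the mean rose from 159 ± 10.2 to 330 ± 20.6 (log2 change of 1.05 with an SE of 0.08, adjusted p = 8.7e-09). Both the activator and this repressor of the network were thus higher in the NUR77 line, by 10.3-fold and 2.07-fold.

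The ratio of Myc to Max within a library does not depend on the scaling. Per kilobase of annotated exon, Myc stood at 4.97%, 4.83% and 3.63% of the level of Max across the control dishes, against 44%, 43.2% and 51.3% across the NUR77 dishes. The difference of the log2 ratios was 3.38 (mean -4.90 ± 0.25 and -1.52 ± 0.14, SD, n = 3 per line; exact permutation test, two-sided, p = 0.1, the smallest that 3 against 3 libraries can give). Myc relative to Mxd1, per kilobase, was 0.78, 0.908 and 0.607 in the GFP libraries and 3.75, 3.76 and 3.86 in the NUR77 libraries. Myc was thus below Mxd1 in all GFP libraries and above it in all NUR77 libraries, with a difference of log2 ratios of 2.33 (exact permutation test, two-sided, p = 0.1, again the smallest possible). Adjusted over these 2 ratios, both p-values stay at 0.1.

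Myc was not the most abundant MYC family gene in either line. Mycn, whose product dimerizes with MAX as MYC does, measured 6637, 6971 and 6735 normalized reads across the control dishes, against 6430, 7344 and 7070 across the NUR77 dishes, where the groups overlapped (log2 change of 0.03, 95% interval -0.08 to 0.15, adjusted p = 0.6). This value turned to -0.04 under TMM scaling (adjusted p = 0.51). Mycn ranked 157 by mean level among the tested genes, on the scale without length. Per kilobase of exon, Mycn was at 111, 112 and 144 times the level of Myc across the control dishes, against 11.4, 13.4 and 11.1 times across the NUR77 dishes. Mycl, the remaining family gene, was counted with 0 reads in the control line against 8 with NUR77. Myc therefore made up 0.69% to 0.896% of the summed level of these 3 genes per kilobase in the control line, against 6.96% to 8.24% in the NUR77 line. The summed level was 2075 ± 53.1 normalized reads per kilobase in the control line, against 2286 ± 144 in the NUR77 line, and the groups overlapped (exact permutation test, two-sided, p = 0.2, with 0.1 the smallest possible). This sum was computed after the values of Mycn had been seen.

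The other genes of the MAX and MLX network moved in both directions, with 2 higher and 4 lower of 8 tested, a called share of 75% beside 66.7% of all tested genes, and a median log2 fold change of -0.15. Mxd4, a MYC antagonist like Mxd1, fell from 322 ± 18.1 to 178 ± 29.5 normalized reads (log2 change of -0.86, adjusted p = 1.2e-06). Mnt, a widely expressed MAX-binding repressor, fell by 0.61 in log2 (adjusted p = 1.3e-05), and Mxi1, another antagonist, by 0.39 (adjusted p = 2.6e-06). Mga, a large MAX-binding repressor, rose by 0.33 (adjusted p = 5.2e-05), and Mxd3 was at 0.44 (adjusted p = 0.092). Outside the naming rule, Mlx and Mlxip of the sister MLX dimers were at 0.29 and -0.33 (adjusted p = 4.5e-04 and 4.3e-04). Among the MAX-binding repressor genes, Mxd1 and Mga thus rose while Mxd4, Mnt and Mxi1 fell.

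**Figure D2:**
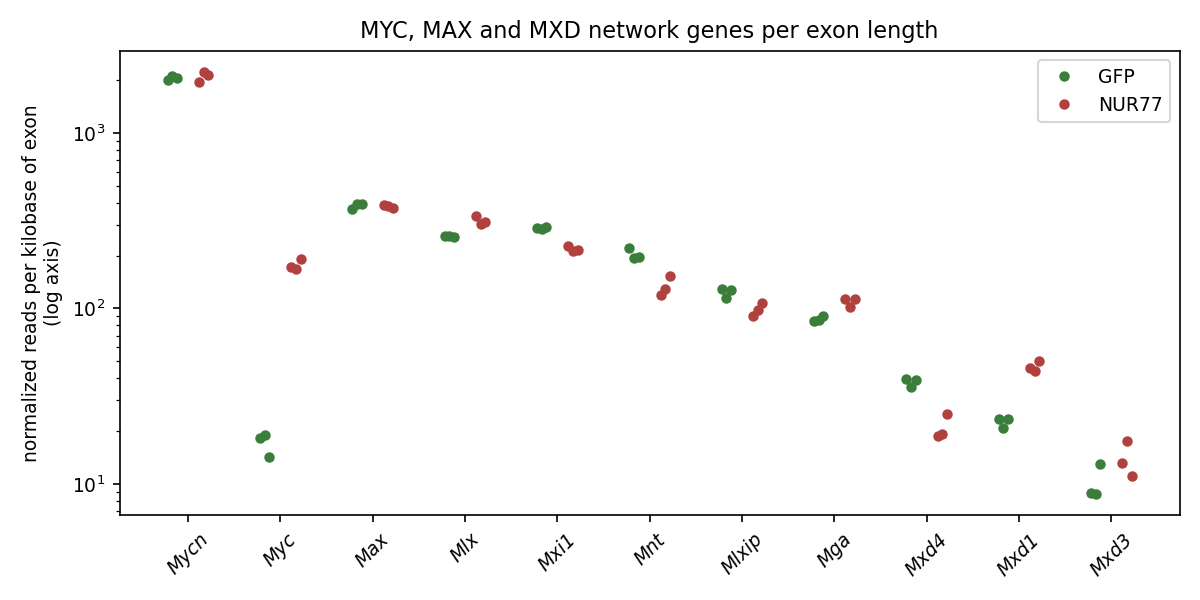
Normalized reads per kilobase of annotated exon (vertical log axis) of 11 MYC, MAX, MXD and MLX network genes in the 3 GFP (green) and 3 NUR77 (red) libraries. Mycn lies highest in both lines with overlapping points, and Myc lies below Mxd1 in the GFP line, at 14.2 to 18.9 against 20.9 to 23.4, and above it in the NUR77 line, at 167 to 193 against 44.3 to 49.9.

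Of 35 textbook MYC targets in ribosome production and growth, all were tested, 24 rose and 6 fell, with a median log2 fold change of 0.27 beside 0.06 for all tested genes, of which 38.4% rose and 28.3% fell. None of the 35 changed by 2-fold or more. Odc1, ornithine decarboxylase of polyamine synthesis, rose from 5058 ± 168 to 9814 ± 1587 normalized reads (log2 change of 0.94, adjusted p = 1.8e-05). Ccnd2, cyclin D2, rose from 1997 ± 111 to 3644 ± 69 (0.87, adjusted p = 1.7e-10), and Rrp9, a factor of ribosomal RNA processing, from 340 ± 17 to 560 ± 34.1 (0.72, adjusted p = 8.1e-08). Cdk4, a kinase of the G1 phase, fell from 3974 ± 39.9 to 2603 ± 108 (-0.61, adjusted p = 7.7e-09). Nop56 and Ppan, both of ribosome assembly, were at 0.13 and -0.08 (adjusted p = 0.077 and 0.28). Under TMM scaling, 19 of the 35 were higher and 7 lower.

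Egr1 (ENSMUSG00000038418, chromosome 18, 34859823 to 34864984, plus strand), which encodes a zinc-finger factor and is the classical read-out of ERK and SRF signalling, measured 2170, 2102 and 1981 normalized reads across the control dishes, against 812, 783 and 724 across the NUR77 dishes. The lowest GFP library was above the highest NUR77 library by a wide margin. The mean fell from 2084 ± 95.7 to 773 ± 44.7, 2.70-fold lower (log2 change of -1.43 with an SE of 0.06, adjusted p = 1.0e-12). The profiles nearest to that of Egr1 were those of Cd68 (distance 0.08), Msra (0.09) and Slc38a6 (0.10).

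Egr2 (ENSMUSG00000037868, chromosome 10, 67535475 to 67542188, plus strand), a relative with roles in macrophage differentiation, measured 68.3, 60.3 and 53.6 normalized reads across the control dishes, against 42.0, 53.6 and 48.5 across the NUR77 dishes. NUR77 replicate 2 reached the level of GFP replicate 3. The log2 fold change of -0.33 (95% interval -0.66 to -0.01 before adjustment) did not pass the threshold (adjusted p = 0.066). It passed under TMM, upper-quartile and median-of-ratios scaling (adjusted p = 0.027, 0.031 and 0.033), without the variance trend (0.046) and without NUR77 replicate 2 (0.047).

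Egr3 (ENSMUSG00000033730, chromosome 14, 70077203 to 70082614, plus strand) was the lowest member and measured 14.6, 16.3 and 13.1 normalized reads across the control dishes, against 10.7, 4.88 and 8.75 across the NUR77 dishes. Only 67 reads of the control line and 30 of the NUR77 line stand behind these values. It fell from 14.7 ± 1.63 to 8.11 ± 2.97 (log2 change of -0.84 with an SE of 0.31, adjusted p = 0.025). Leaving out GFP replicate 1 (-0.83, adjusted p = 0.06), GFP replicate 2 (-0.76, 0.083) or NUR77 replicate 2 (-0.55, 0.12) ended the call of Egr3. All 3 EGR genes thus had a lower mean in the NUR77 line, with Egr1 the only one whose call held under each alternative fitted. Per kilobase, Egr1 was at 465 ± 21.3 normalized reads in the GFP line, against 17.9 ± 2.17 for Egr2 and 3.33 ± 0.369 for Egr3, and this order was kept in the NUR77 line at 172 ± 9.97, 14.1 ± 1.72 and 1.84 ± 0.674.

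Among the EGR and IER relatives and corepressors, 1 rose and 3 fell of 4 tested, beside 66.7% of all tested genes called. Without NUR77 replicate 1, 1 was higher and 2 lower. Nab2, a corepressor that binds EGR factors and is itself known as a target of them, fell from 1178 ± 33 to 390 ± 64.7 normalized reads, 3.02-fold lower (log2 change of -1.61, adjusted p = 1.2e-08). Nab1, the related corepressor, rose by 0.24 (adjusted p = 0.0015). Ier3ip1, whose product binds IER3, fell by 0.25 in log2 (adjusted p = 0.0096). Ier5l, a relative of Ier5 and below the level set for naming, fell from 20.5 ± 5.48 to 10.2 ± 4.22 (adjusted p = 0.011). No read was found for Egr4 or Wt1, a zinc-finger gene related to the EGR genes.

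Ier3 (ENSMUSG00000003541, chromosome 17, 35821684 to 35822923, plus strand), which encodes a survival-related protein induced by NF-kB and ERK, measured 284, 240 and 290 normalized reads across the control dishes, against 1008, 1023 and 1051 across the NUR77 dishes. The NUR77 values lay close together and all above the GFP values. The mean rose 3.79-fold, from 271 ± 27.2 to 1027 ± 21.7 (log2 change of 1.92 with an SE of 0.07, adjusted p = 3.7e-13). Of its 24 nearest tested neighbours, 12 were higher and 3 lower, with a median log2 fold change of 0.25, and their part in the rise was not tested. The profiles nearest to that of Ier3 were those of Itga6 (distance 0.15), Fnbp1l (0.17) and Cd74 (0.17).

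Ier2 (ENSMUSG00000053560, chromosome 8, 84661331 to 84662852, minus strand), a nuclear regulator and early growth-factor response gene, measured 266, 324 and 305 normalized reads across the control dishes, against 382, 461 and 441 across the NUR77 dishes. It rose 1.44-fold, from 298 ± 29.4 to 428 ± 41 (log2 change of 0.52 with an SE of 0.09, adjusted p = 5.5e-05). Ier5 (ENSMUSG00000056708, chromosome 1, 155096361 to 155099636, minus strand), known as a regulator of the heat shock factor HSF1, measured 656, 603 and 616 across the control dishes, against 896, 908 and 955 across the NUR77 dishes. It rose 1.47-fold, from 625 ± 27.7 to 920 ± 30.8 (log2 change of 0.56 with an SE of 0.06, adjusted p = 2.1e-07). Neither gene overlapped between the lines, and the 95% intervals of their log2 fold changes (0.34 to 0.70 and 0.44 to 0.68) lie below that of Ier3 (1.77 to 2.08). In the GFP line the 3 IER genes stood within a narrow range per kilobase, at 196 ± 19.3 for Ier2, 240 ± 24 for Ier3 and 191 ± 8.45 for Ier5. In the NUR77 line Ier3 was at 908 ± 19.2 normalized reads per kilobase, and Ier2 and Ier5 were at 281 ± 26.9 and 281 ± 9.39.

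**Figure D3:**
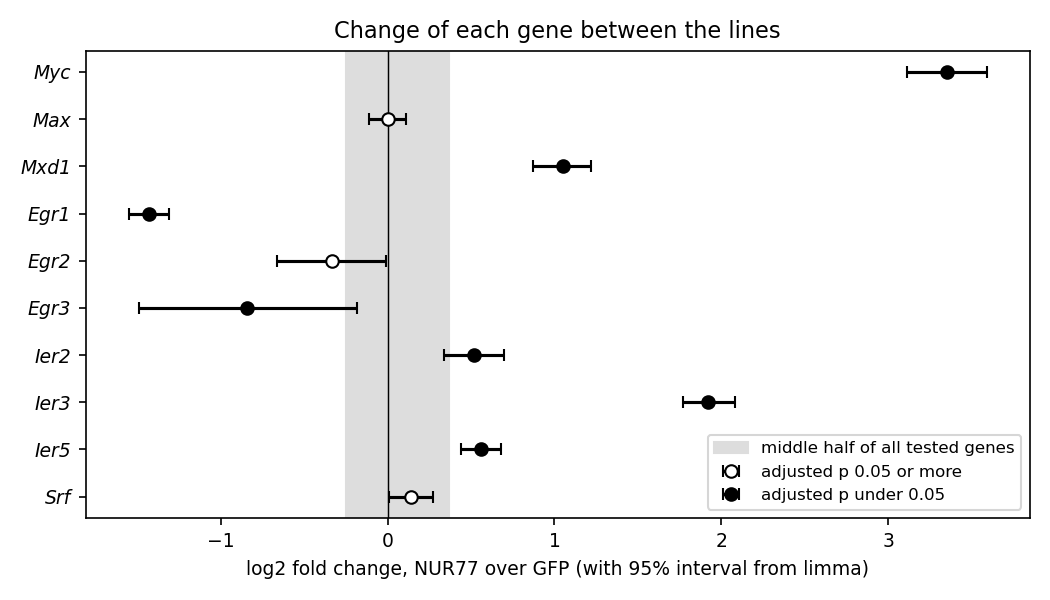
Log2 fold change of each of the 10 genes, NUR77 over GFP (horizontal axis), with the 95% interval from limma; filled points passed an adjusted p of 0.05 and open points did not. The grey band spans the quartiles of all tested genes, from -0.25 to 0.37, and Myc at 3.35, Ier3 at 1.92 and Egr1 at -1.43 lie farthest from it.

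Srf (ENSMUSG00000015605, chromosome 17, 46548329 to 46556175, minus strand), the transcription factor upstream of many immediate-early genes, measured 642, 615 and 635 normalized reads across the control dishes, against 641, 722 and 718 across the NUR77 dishes. NUR77 replicate 1 lay within the range of the GFP libraries and the other two above it. The log2 fold change was 0.14 (95% interval 0.01 to 0.27 before adjustment, adjusted p = 0.06). It passed without NUR77 replicate 1 (0.19, adjusted p = 0.0089) and was at 0.06 under TMM scaling (adjusted p = 0.38).

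Of the cofactors of SRF, 5 were tested, 3 rose and 2 fell, beside 66.7% of all tested genes called, with a median log2 fold change of 0.26. Elk3, an ETS-family partner of SRF, rose from 426 ± 6.5 to 1634 ± 136 normalized reads, 3.83-fold (log2 change of 1.93, adjusted p = 5.7e-14). Elk1, the best-known ERK-activated partner, rose from 290 ± 17.7 to 447 ± 11.4 (0.62, adjusted p = 5.8e-07), while Elk4 fell by 0.26 in log2 (adjusted p = 5.4e-04). Mrtfb, an actin-regulated cofactor, fell from 522 ± 24.1 to 384 ± 27.5 (-0.44, adjusted p = 2.7e-05). Its relative Mrtfa, outside the naming rule, rose by 0.26 (adjusted p = 0.0011). No read was found for Myocd, the muscle cofactor.

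Of 23 cytoskeletal SRF targets, 16 were tested, 9 rose and 3 fell, with a median log2 fold change of 0.26. Their called share of 75% is near the 66.7% of all tested genes. Actg1, a cytoplasmic actin whose value is uncertain because near-identical copies can share its reads, rose from 5688 ± 178 to 12095 ± 914 normalized reads (log2 change of 1.09, adjusted p = 2.2e-11). Cnn2, calponin 2, was counted with 4 reads in the control line against 387 with NUR77, and Tpm2, a tropomyosin, rose from 5.91 ± 1.18 to 50.7 ± 14.7 (2.88, adjusted p = 3.5e-08). Tln1, talin 1 of integrin adhesions, fell from 19747 ± 204 to 8198 ± 282 (-1.27, adjusted p = 2.0e-13). Cfl1, cofilin, was at 0.03 and Tpm3 at -0.01 (adjusted p = 0.63 and 0.85), and the sign of Cfl1 turned under other scalings. NUR77 replicate 1 had the highest summed level of the 19 skeletal muscle markers, at 624 normalized reads against 232 to 495 in the other libraries, and of the 7 fibroblast markers, at 114 against 17.6 to 43.2. All 19 muscle markers had at least 1 read. Tnni2 alone made up 385, 336 and 372 of the muscle sums in the control libraries, and 96.4, 58.5 and 71.6 in the NUR77 libraries. Tnni1 made up 102, 95.4 and 47.7 in the NUR77 libraries. Tnni2 and Tnni1 thus mask the remaining muscle markers in the sums. Every muscle marker except Tnni2, Myh2 and Myh4 was highest in NUR77 replicate 1. Acta1 was at 51.8, 12.5 and 8.75 in NUR77 replicates 1, 2 and 3, against 7.53 to 9.76 in the control line. Mylpf was at 63.4, 16 and 12.7 there, against 12.4 to 18.8. The source of these reads in NUR77 replicate 1 was not tested. Tpm2 was at 67.0, 38.3 and 46.9 in NUR77 replicates 1, 2 and 3. Without NUR77 replicate 1, 9 cytoskeletal targets were higher and 3 lower, the same counts as with it.

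The ERK pathway, which activates the ETS partners of SRF, had 8 kinase or RAS genes higher and 3 lower of 15 tested, with a median log2 fold change of 0.16. Their called share of 73.3% is near the 66.7% of all tested genes. Under TMM scaling 7 were higher and 5 lower, and without NUR77 replicate 1, 8 were higher and 2 lower, so the balance of directions depends on the scaling and on that library. Ksr1, a scaffold of the pathway, rose from 4.11 ± 1.83 to 74.3 ± 15.1 normalized reads (log2 change of 3.94, adjusted p = 2.5e-09). Rps6ka2, an RSK kinase downstream of ERK, rose from 161 ± 5.43 to 541 ± 3.95 (1.74, adjusted p = 9.6e-13), and Rps6ka1 from 948 ± 66.5 to 1777 ± 27.9 (0.91, adjusted p = 3.4e-10). Rps6ka5, a kinase that phosphorylates histone H3 at immediate-early genes, rose by 0.68 (adjusted p = 4.3e-07). Nras and Mapk3 (ERK1) were at -0.03 and -0.02 (adjusted p = 0.6 and 0.8).

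Feedback inhibitors of ERK, many of them immediate-early genes themselves, rose in 7 of 10 tested cases and fell in 1, beside 38.4% higher and 28.3% lower of all tested genes, with a median log2 fold change of 0.55. Dusp5, a nuclear ERK phosphatase, measured 155, 102 and 119 normalized reads across the control dishes, against 943, 944 and 762 across the NUR77 dishes (log2 change of 2.82, adjusted p = 5.6e-08). Dusp6, the cytoplasmic ERK phosphatase, rose from 561 ± 49.6 to 1366 ± 64.7 (1.28, adjusted p = 2.3e-11), Dusp1 from 88.4 ± 5.31 to 294 ± 41.2 (1.71, adjusted p = 3.7e-10) and Spred3 from 72.3 ± 11 to 272 ± 21.4 (1.90, adjusted p = 2.3e-10). Spred1 and Spry2, inhibitors that act between receptors and RAF, were at 0.09 and 0.23 (adjusted p = 0.15 and 0.14). Dusp7, outside the naming rule, was the gene that fell, by 0.41 in log2 (adjusted p = 0.0023). Egr1 fell in the NUR77 line, where Dusp5, Dusp6 and Dusp1 rose and Dusp7 fell, and a link between them was not tested.

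Of 25 other immediate-early genes outside the AP-1 family, all were tested, 15 rose and 5 fell, with a median log2 fold change of 0.58. Over all tested genes 66.7% were called. A change of 2-fold or more was called in 12 of the 25, and in 13.9% of all tested genes. The list was chosen with earlier results of these data known, so this contrast is not a test. Nfkbiz, an atypical inhibitor of NF-kB that co-activates secondary response genes, rose from 100 ± 9.54 to 2228 ± 150 normalized reads, 22.2-fold (log2 change of 4.46, adjusted p = 3.2e-17). Phlda1 rose from 10.8 ± 2.1 to 198 ± 25.7 (4.08, adjusted p = 1.4e-12), and Arc, best known from neurons as a read-out of activity, from 12.2 ± 1.66 to 126 ± 12.8 (3.27, adjusted p = 2.8e-11). Klf4, a zinc-finger factor of monocyte differentiation, fell from 434 ± 46.4 to 71.9 ± 5.95 (-2.57, adjusted p = 6.0e-13), 6.03-fold lower. Atf3 and Klf10 were at 0.03 and -0.07 (adjusted p = 0.69 and 0.5), and the sign of Atf3 turned under other scalings.

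**Figure D4:**
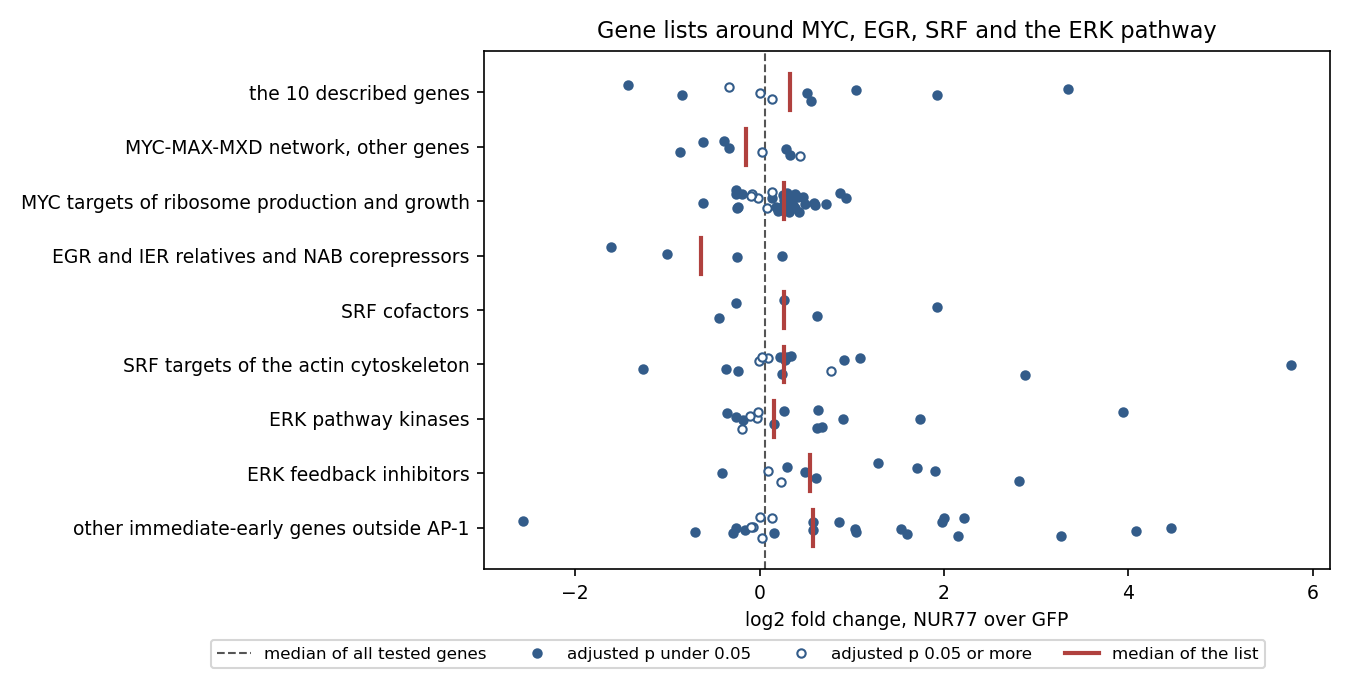
Log2 fold change, NUR77 over GFP (horizontal axis), of each tested gene in the 10 described genes and 8 related lists; filled points passed an adjusted p of 0.05, red bars are list medians and the dashed line is the median of all tested genes at 0.06. The MYC targets lie between -0.61 and 0.94, while other immediate-early genes spread from -2.57 to 4.46.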

How the data were processed

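Poly(A) RNA of 6 cultures, 3 per line and each from its own dish, was sequenced from 1000 ng of total RNA after 12 PCR cycles, per the labels' protocols. A mixed pool of 13 libraries is given for all 6. The authors deposited log2 values; from the values, these are log2(normalized reads + 1), with 10000000 normalized reads per library. TopHat2 2.1, HTSeq and DESeq2 with mm10 are named per the submitters' processing notes; what each did, the use of strand in counting and the annotation version were not given in the sources used here. Whole reads were recovered for 100% of values within 0.1 read, and limma-voom on these reads called 7494 genes. GENCODE M21 (GRCm38) named 22872 of the 23154 identifiers and gave coordinates and exon lengths, which span all isoforms.

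The test was limma 3.58.1 in R 4.3.3, with trend and robust moderation, on 6 libraries without covariates. It was also run on simulated counts in which few genes changed. That run does not cover a setting where most genes are called, as here. Replicates of a line differed by more than sampling noise (chi-square per degree of freedom 2.51 or more). The spread behind each p-value is that between dishes of a single line. Ratios were tested by exact permutation (scipy 1.17.1). The 10 members and the 8 lists (133 entries, 132 matched) were chosen with earlier results of these data known; lists got no set test. Named from each list were up to 4 called genes, by size, without overlap and with a higher mean of at least 50, and up to 2 genes not called, by level; genes named outside this rule are stated as such or are markers. For Myc, Egr1 and Ier3 the 3 nearest profiles were named, without predicted genes and pseudogenes. No gene with an annotated exon overlapped a member's exons. Alternatives were pseudocounts of 0.5 and 5, no filter, a mean of 50, TMM, median-of-ratios and upper-quartile scaling, limma without trend, limma-voom on recovered reads, a replicate block and each library left out.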

Additional observations from a re-analysis of the deposited data

How the results depend on the processing

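Myc, Mxd1, Egr1, Ier2, Ier3 and Ier5 kept their direction and their call under each of the 16 alternatives, with log2 fold changes of 3.22 to 3.43, 0.97 to 1.08, -1.50 to -1.38, 0.44 to 0.60, 1.84 to 1.97 and 0.48 to 0.59. Max, never called, was at -0.07, -0.05 and -0.06 under TMM, median-of-ratios and upper-quartile scaling, and at -0.03 to 0.02 with 1 library left out. Egr2 passed at -0.40, -0.39 and -0.39 under the same scalings and at -0.33 without trend, and ranged from -0.42 to -0.24 with 1 library left out. Egr3 ranged from -1.04 to -0.55 and Srf from 0.11 to 0.19 with 1 library left out. The number of members lower in NUR77 was 1 with the filter at a mean of 50, which removes Egr3, and 1 to 2 with 1 library left out. It was 3 under the 3 scalings. The total called in each list and over all genes stayed within 1.5 times, with 6680 to 8429 genes called, but the ERK pathway genes that were lower went from 3 to 5 under each scaling and to 2 without NUR77 replicate 1. Scaling shifted the median of all genes by -0.07 to -0.06. Among the named genes not called, Nop56 passed under 3 of 16 alternatives (lowest adjusted p = 0.018) and Mxd3 under 2 of 15 (0.038). Ppan, Spry2 and Klf10 passed under 1 of 16 each (adjusted p = 0.044, 0.029 and 0.034). Mycn was at -0.04, -0.02 and -0.03 under the 3 scalings and -0.01 to 0.09 with 1 library left out, Cfl1 at -0.04, -0.02, -0.03 and -0.01 to 0.11, Atf3 at -0.05, -0.03, -0.03 and -0.03 to 0.09, and Tpm3, negative otherwise, at -0.07 to 0.05 (0.02 without GFP replicate 2, 0.05 without NUR77 replicate 3); none of these passed. The replicate block gave 7585 called genes against 7475 without it and left all 10 member calls as they were, with Myc at 3.35 (adjusted p = 1.3e-12) and Egr3 at -0.84 (adjusted p = 0.031). The labels give a replicate number and no stated pairing. Deviations of same-numbered samples correlated at 0.002, 0.114 and 0.045, and those of other pairs at -0.109 to 0.073. Not every library correlated best with its own number. These values do not settle whether same-numbered samples were paired. Depth limits Egr3, with 30 reads in the NUR77 line.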
